A study of Mus musculus with 10 samples.

Results

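The 10 genes described here encode the machinery of antigen presentation by major histocompatibility complex (MHC) class II. They were taken by symbol from the deposited table, and all 10 were found among its 20813 genes. RNA was measured in 10 leukemic spleens of C57BL/6 mice. The recipients were sub-lethally irradiated hosts of T-cell acute lymphoblastic leukemia (T-ALL) with a conditional Sirt1 allele, so both groups carry that allele and the spleens still hold host cells. The 5 spleens labelled Sirt1-deleted came from mice given tamoxifen (3 mg per mouse in corn oil, into the peritoneum), and the 5 control spleens from mice given corn oil alone. Tamoxifen itself and loss of Sirt1 therefore cannot be told apart. The Cre driver, the ages, and whether the recipients shared a primary leukemia are not given in the sources used here, so the p-values measure only the spread between these spleens.

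Class II molecules are pairs of an alpha and a beta chain that carry peptides from the endosome to the cell surface for CD4 T cells. The invariant chain CD74 escorts the new pair, the H2-DM molecule then exchanges the last piece of the invariant chain for a peptide, and H2-O restrains H2-DM. The coactivator CIITA switches on the genes of the class II chains, CD74 and H2-DM. It does so constitutively in B cells and dendritic cells, and after interferon gamma in macrophages and other cells. Mouse T cells make little or no class II, so in a T-ALL spleen these transcripts are usually read as those of remaining host cells. C57BL/6 mice carry the b haplotype, in which the E alpha chain is not made and the H2-Eb1 product has no partner at the surface.

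Of the 10 genes, 8 lie in the MHC on mouse chromosome 17, while Cd74 and Ciita lie elsewhere, Ciita at chr16:10480059-10528418 on the plus strand (GENCODE M21, GRCm38). By rising coordinate the 8 were H2-Oa (chr17:34092340-34095234), H2-DMa (chr17:34119541-34139101), H2-DMb2 (chr17:34143307-34151555), H2-DMb1 (chr17:34153072-34160230), H2-Ob (chr17:34238903-34254414), H2-Ab1 (chr17:34257689-34269419), H2-Aa (chr17:34282744-34287823) and H2-Eb1 (chr17:34305867-34316674). H2-Aa is on the minus strand and the other 7 are on the plus strand. The submitters' processing notes name mm10, which has the same coordinates as GRCm38.

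CIITA binds no DNA itself and acts through factors that sit on the promoters. Class II promoters hold an X box, bound by the RFX complex, and further downstream a Y box, bound by NF-Y. A RefSeq promoter window (GRCm38.p6; 250 bases before to 50 after the start) was at hand for 7 of the 10 members. The letters searched were GATTGG for the Y box and GNAAC for the left end of the X box, on both strands, with 24 to 31 bases between them. This spacing was set after the sequences were seen. The 7 members had 8 windows, because H2-DMa had 2. Of these 8 windows, 7 held GATTGG (all but 1 of the H2-DMa windows), against 16.1% of all 32851 windows, and 5 (H2-Aa, H2-Eb1, H2-DMb1, H2-Oa and H2-Ob) held the pair, against 0.527%. The 100 bases from 138 to 39 before the start are shown for 4 of these, because H2-Aa and H2-Eb1 rose and H2-Oa fell in the data below, while H2-Ob did not pass the test. Capitals mark the GNAAC and GATTGG of the pair with this spacing, and other matches to GNAAC on either strand, as at the left end of the H2-Ob stretch, are in lower case. The stretches lie at chr17:34287862-34287961 (minus strand), chr17:34305729-34305828, chr17:34238767-34238866 and chr17:34092241-34092340 (plus strand), in that order.
H2-Aa: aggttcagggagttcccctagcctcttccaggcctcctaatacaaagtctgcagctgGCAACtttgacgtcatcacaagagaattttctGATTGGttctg
H2-Eb1: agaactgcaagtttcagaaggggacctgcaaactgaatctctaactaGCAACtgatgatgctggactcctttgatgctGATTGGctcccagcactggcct
H2-Ob: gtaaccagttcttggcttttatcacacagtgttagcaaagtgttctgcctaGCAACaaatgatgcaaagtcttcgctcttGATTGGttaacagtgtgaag
H2-Oa: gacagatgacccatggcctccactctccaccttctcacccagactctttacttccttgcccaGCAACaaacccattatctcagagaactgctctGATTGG

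The gap between the boxes was 27 bases in H2-Aa and H2-Oa, 26 in H2-Eb1 and 24 in H2-Ob, so genes that rose and the gene that fell held the same letters at close distances. H2-DMb1 and H2-DMb2, which encode the beta chain of H2-DM, are neighbouring copies. Over 30 bases around the X box (chr17:34153087-34153116 and chr17:34145116-34145145, both plus strand) they differed at 2 bases, shown in capitals.
H2-DMb1: ggtttacctaGtaacTgatgatgctaggct
H2-DMb2: ggtttacctaTtaacCgatgatgctaggct
H2-DMb1 held the pair of boxes in its window, and H2-DMb2 and both H2-DMa windows did not. A match or its absence describes letters only and says nothing of binding.

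The deposited values are normalized counts by name, and a sample's total lay between 33.7 and 34.5 M (M, mega). Sirt1 was measured first as a check of the labels. Its normalized count was 1925, 1715, 1817, 1812 and 2097 in labelled Sirt1-deleted replicates 7, 8, 10, 11 and 12, and 1735, 1803, 1796, 1909 and 1810 in control replicates 2, 3, 4, 5 and 6. The group ranges overlapped and the gene-level value did not separate the labels (log2 difference 0.05, SE 0.06, limma adjusted p = 0.568), so the group is named by its label throughout. A gene-level count may still include reads outside a deleted part.

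All 10 members passed the filter of a mean of at least 10. The test was limma on log2(value + 1) over 15276 genes with Benjamini-Hochberg adjustment, and a gene is said to rise or fall where its adjusted p was under 0.05. H2-Aa, H2-Eb1 and H2-DMb1 rose in the labelled Sirt1-deleted samples, H2-Oa fell, and the other 6 did not pass. The share called, 4 of 10, was close to the background of 36.1% of all tested genes, and nothing about the members is read from it. By direction, 3 of 10 were called higher against a background of 16.8%, and 1 of 10 lower against 19.4%. The median log2 difference of the members was 0.36, against 0.00 for all tested genes, and 8 of 10 members had a positive difference. The groups overlapped for every member, whereas 24.0% of tested genes had no overlap. In bulk RNA, a change in the number of cells of a type and a change in RNA per cell cannot be told apart.

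**Figure D1:**
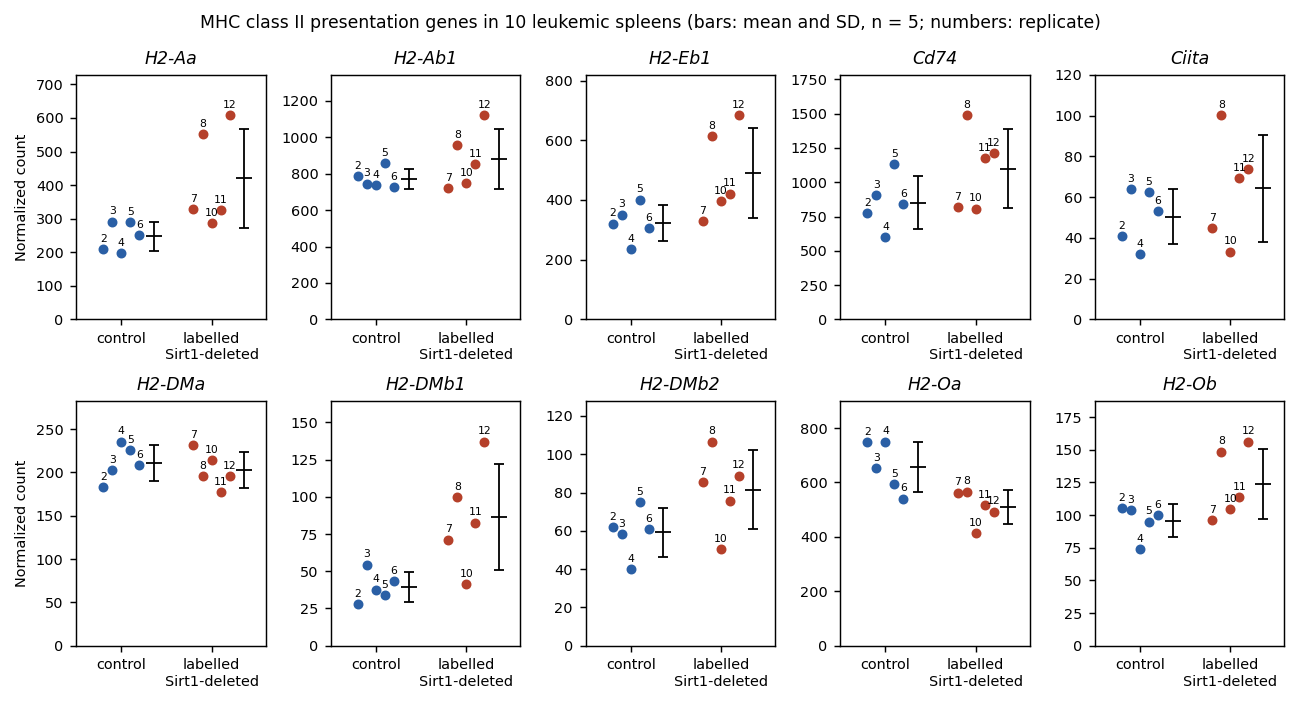
Normalized counts (y axis, from 0) of each class II gene in 5 control and 5 labelled Sirt1-deleted samples, with the replicate number at each point and bars for the mean and SD. Labelled Sirt1-deleted replicates 8 and 12 are the upper pair of that group for H2-Aa, H2-Ab1, H2-Eb1, Cd74, Ciita, H2-DMb1, H2-DMb2 and H2-Ob, and the groups overlap in every panel.

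H2-Aa encodes the alpha chain of I-A, the class II molecule that C57BL/6 mice display. Its normalized count was 327.5, 553, 287, 325 and 608 in labelled Sirt1-deleted replicates 7, 8, 10, 11 and 12, and 210, 291, 198, 289 and 251 in control replicates 2 to 6. Replicates 8 and 12 stood well above the others, replicates 7 and 11 were just above the highest control, and replicate 10 lay inside the control range. The mean rose from 248 ± 43.3 to 420 ± 149 (SD, n = 5 each), a log2 difference of 0.71 (SE 0.21, 95% interval 0.25 to 1.16; limma adjusted p = 0.0200). An exact two-sided permutation test of H2-Aa alone gave p = 0.0238. The call was lost without control replicate 2 (log2 difference 0.65, adjusted p = 0.0524).

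H2-Ab1, the beta chain that pairs with H2-Aa, did not pass. Its normalized count was 721, 955, 748, 853 and 1120 in labelled Sirt1-deleted spleens, against 785, 746, 737, 857 and 727 in controls, in the same order of replicates. Only replicates 8 and 12 exceeded the highest control, and replicate 7 was the lowest of all 10 samples. The log2 difference was 0.17 (SE 0.11, 95% interval -0.06 to 0.41; limma adjusted p = 0.234).

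Whether the 2 chains of this molecule responded differently was tested on their ratio. The within-sample log2 ratio of H2-Ab1 to H2-Aa averaged 1.12 ± 0.278 under the Sirt1-deleted label against 1.65 ± 0.240 in controls (SD, n = 5 each), and all 5 labelled Sirt1-deleted samples lay below the control mean. The difference of -0.53 had an exact permutation p of 0.0238, which became 0.119 after adjustment over the 10 gene pairs tested. It did not hold up against that correction.

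H2-Eb1 encodes the beta chain of I-E. Its normalized count was 330, 613.5, 397.5, 422 and 684 in labelled Sirt1-deleted replicates 7, 8, 10, 11 and 12, and 321, 351, 236, 401 and 306 in controls 2 to 6. Again replicates 8 and 12 were far above the rest, replicate 11 was slightly above the highest control, and 7 and 10 were inside the control range. The log2 difference was 0.56 (SE 0.20, 95% interval 0.14 to 0.99; limma adjusted p = 0.0400; exact permutation p = 0.0476). The call was lost when any 1 of 6 samples was omitted (labelled Sirt1-deleted replicate 8 or 12, or control replicate 2, 3, 4 or 6), with adjusted p up to 0.0963. The ratio of H2-Eb1 to H2-Aa was not shown to change, with a difference of -0.14 on the log2 scale (exact permutation p = 0.222, adjusted p = 0.246 over the 10 pairs).

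H2-Eb2, a further E beta gene outside the 10 members, had the opposite sign. Its normalized count was 33.5, 45.6, 24.7, 61.0 and 67.8 in labelled Sirt1-deleted spleens, against 116, 56.6, 82.2, 92.1 and 52.9 in controls. Of the labelled Sirt1-deleted samples, 3 were below every control. The log2 difference of -0.80 (SE 0.30) just missed the threshold (limma adjusted p = 0.0520).

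Cd74, the invariant chain, was the member with the highest normalized counts. They were 818, 1488, 807, 1176 and 1210 in labelled Sirt1-deleted replicates 7, 8, 10, 11 and 12, and 774, 906, 600, 1134 and 841 in controls 2 to 6. Replicates 8, 11 and 12 exceeded every control and replicates 7 and 10 sat among the controls. The log2 difference of 0.36 (SE 0.19, 95% interval -0.05 to 0.77) did not pass (limma adjusted p = 0.150).

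Ciita, the coactivator gene, was among the lowest members at 64.2 ± 26.2 against 50.5 ± 13.7 (SD, n = 5 each). Its values were 44.9, 100.1, 33.3, 69.3 and 73.6 in labelled Sirt1-deleted spleens, against 41.0, 63.8, 32.2, 62.4 and 53.0 in controls. The spread covered the difference: 3 labelled Sirt1-deleted samples were above the highest control and replicate 10 was nearly as low as the lowest control. The log2 difference was 0.29 (SE 0.30, 95% interval -0.35 to 0.93; limma adjusted p = 0.473). The interval includes 0 and also differences as large as that of H2-Aa.

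**Figure D2:**
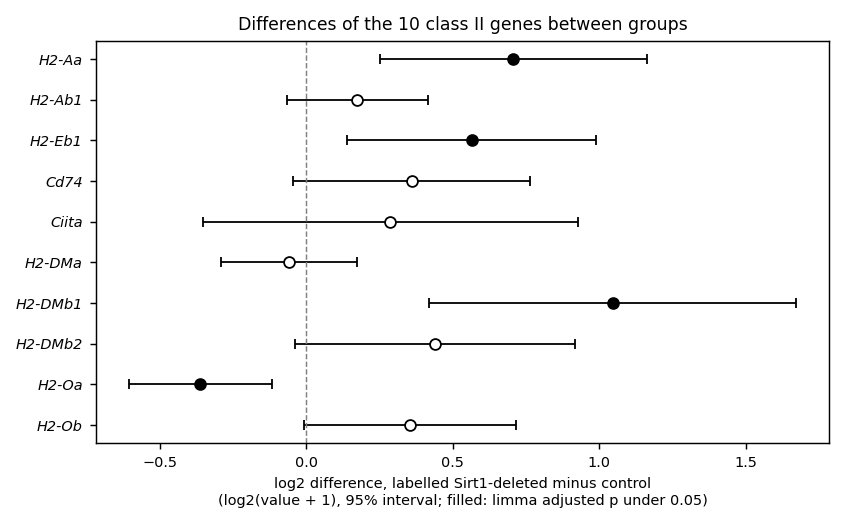
Log2 difference of each class II gene between labelled Sirt1-deleted and control samples (x axis) with its 95% interval from limma, filled where the adjusted p was under 0.05. H2-DMb1 is highest at 1.045, H2-Oa is the filled point below 0 at -0.36, and the widest interval is that of Ciita, from -0.35 to 0.93, with H2-DMb1 nearly as wide.

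The peptide-exchange molecule H2-DM is built from H2-DMa and a beta chain encoded by H2-DMb1 or H2-DMb2. H2-DMb1 had the largest rise of the 10 members. Its normalized count was 71.3, 99.8, 41.3, 82.75 and 137 in labelled Sirt1-deleted replicates 7, 8, 10, 11 and 12, and 27.9, 54.5, 37.6, 33.8 and 43.2 in controls 2 to 6. All labelled Sirt1-deleted samples except replicate 10 exceeded the highest control. The mean rose from 39.4 ± 10.1 to 86.5 ± 35.5 (SD, n = 5 each), a log2 difference of 1.045 (SE 0.29, 95% interval 0.42 to 1.67; limma adjusted p = 0.0145; exact permutation p = 0.0238).

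H2-DMb2 measured 85.5, 107, 50.3, 75.75 and 88.8 in labelled Sirt1-deleted spleens, against 61.8, 58.3, 39.9, 75.15 and 60.85 in controls. Replicate 10 again lay among the controls, and replicate 11 was barely above the highest of them. The log2 difference of 0.44 (SE 0.22) did not pass (limma adjusted p = 0.136), but it did without replicate 10 (0.60, adjusted p = 0.0280).

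The copies share sequence: 31.4% of the 31-base words in annotated H2-DMb1 transcripts also occur in H2-DMb2. The quantifier's division of reads between them is therefore uncertain. The sum of both genes does not depend on it and was 157, 206, 91.6, 158.5 and 226 in labelled Sirt1-deleted replicates 7, 8, 10, 11 and 12, against 89.7, 113, 77.5, 109 and 104 in controls. Replicate 10 alone of its group lay inside the control range. The mean of the sum was 168 ± 52.2 against 98.6 ± 14.7 (SD, n = 5 each), with a log2 difference of 0.71, given without a test. Of the 31-base words of H2-DMb2, 29.7% occur in H2-DMb1 and 36.6% in any other gene. The sum may therefore still share reads with further genes.

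H2-DMa, the alpha chain of the same molecule, differed by less than the spread between replicates. It measured 231, 196, 214, 177 and 195 in labelled Sirt1-deleted spleens, against 183, 203, 235.5, 225.5 and 208.5 in controls. Replicates 8 and 12, the highest for most other members, were not high here. The log2 difference was -0.06 (SE 0.11, 95% interval -0.29 to 0.17; limma adjusted p = 0.707), and upper-quartile rescaling moved it to 0.0019. Of its 31-base words, 9.23% occur in Brd2, which overlaps it on the opposite strand and measured 12160 ± 597 against 11730 ± 209, many times the level of H2-DMa. Shared words were counted in either orientation, whereas the libraries kept strand, and how the quantifier treated strand was not examined. The part of Brd2 reads in the H2-DMa value was not tested.

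The log2 ratio of H2-DMa to H2-Aa was -0.98 ± 0.558 in labelled Sirt1-deleted spleens, against -0.22 ± 0.287 in controls, with all 5 labelled Sirt1-deleted samples below the control mean. The difference of -0.77 was the largest of the 10 pairs (exact permutation p = 0.0238), and it too had an adjusted p of 0.119.

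H2-Oa and H2-Ob encode the chains of H2-O, the inhibitor of H2-DM. H2-Oa was the only member that fell. It measured 562.5, 566, 414, 518 and 493 in labelled Sirt1-deleted replicates 7, 8, 10, 11 and 12, and 747, 653.5, 750, 595 and 541 in controls 2 to 6. Replicates 10, 11 and 12 were below every control, while 7 and 8 were above the lowest control. The mean fell from 657 ± 92.5 to 511 ± 62.2 (SD, n = 5 each), a log2 difference of -0.36 (SE 0.11, 95% interval -0.60 to -0.12; limma adjusted p = 0.0251; exact permutation p = 0.0238). The call was lost after upper-quartile rescaling (-0.30, adjusted p = 0.0542) and without labelled Sirt1-deleted replicate 12, control replicate 2 or control replicate 4. Of its 31-base words, again counted in either orientation, 18.3% occur in BC051537, an annotated gene on the opposite strand that was not analysed here.

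H2-Ob had the opposite sign to its partner. It measured 96.1, 148.5, 104.5, 114 and 156 in labelled Sirt1-deleted spleens, against 105, 104, 74.2, 95.1 and 99.9 in controls. Replicates 8 and 12 were highest and replicate 11 was just above the controls. The log2 difference of 0.35 (SE 0.17, 95% interval -0.01 to 0.71) did not pass (limma adjusted p = 0.114). Against H2-DMa, the log2 ratio differed by -0.30 for H2-Oa (exact permutation p = 0.103) and by 0.41 for H2-Ob (exact permutation p = 0.119), both with an adjusted p of 0.170 over the 10 pairs.

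**Figure D3:**
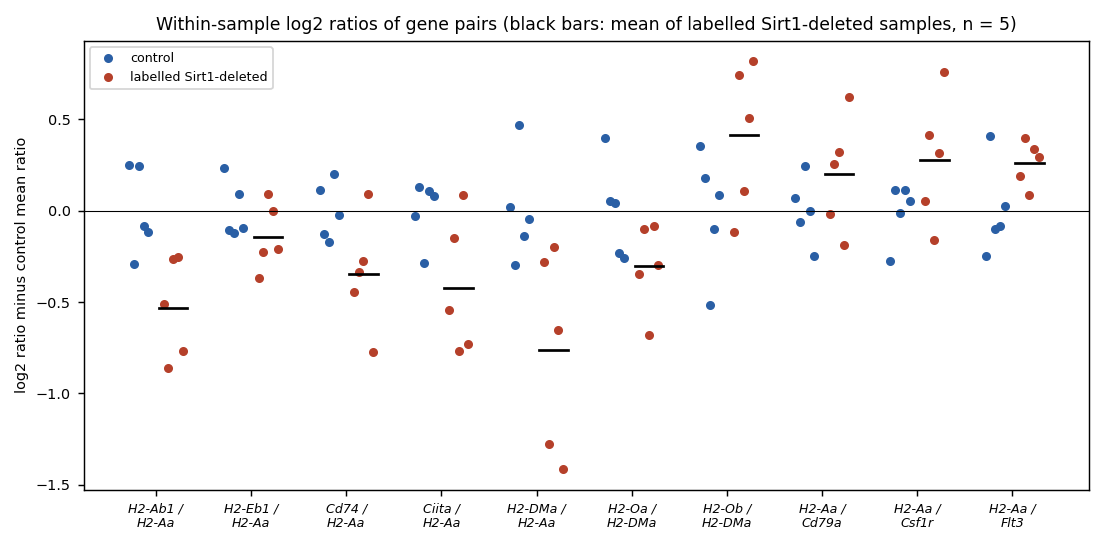
Within-sample log2 ratios of the 10 gene pairs (x axis), each drawn relative to the mean ratio in controls (y axis, log2), with black bars for the mean of the 5 labelled Sirt1-deleted samples. The bars for H2-Ab1 to H2-Aa (-0.53) and H2-DMa to H2-Aa (-0.77) lie lowest, and none of the 10 differences passed after adjustment.

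Levels of different genes were compared per kilobase, after division by the median length of a gene's annotated protein-coding transcripts. In controls the order of normalized counts per kilobase was H2-Ab1 (867 ± 60.0, SD, n = 5), Cd74 (633 ± 145), H2-Oa (604 ± 85.0), H2-Aa (254 ± 44.4), H2-Eb1 (228 ± 42.7), H2-DMa (127 ± 12.4), H2-Ob (50.9 ± 6.74), H2-DMb2 (41.6 ± 8.86), H2-DMb1 (28.1 ± 7.21) and Ciita (12.3 ± 3.34). The ranges of neighbours overlapped from H2-Ab1 through Cd74 to H2-Oa, between H2-Aa and H2-Eb1, and from H2-Ob through H2-DMb2 to H2-DMb1. Clear steps without overlap lay below H2-Oa, H2-Eb1, H2-DMa and H2-DMb1. The inhibitor chain H2-Oa was thus above its partner H2-Ob in every control, at 497 to 690 against 39.5 to 56.1 per kilobase. The part of BC051537 reads in the H2-Oa value was not tested. All 10 members together made up 0.00864% to 0.0110% of the normalized counts of a control sample and 0.00905% to 0.0142% of a labelled Sirt1-deleted sample.

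Several samples stood high or low for many members at once. Labelled Sirt1-deleted replicates 8 and 12 each exceeded the highest control for 8 of the 10 members, replicate 11 for 7, replicate 7 for 3 and replicate 10 for 0. Replicate 12 was the highest of all samples for 5 members and replicate 8 for 3. Control replicate 4 was the lowest of all samples for 6 members and the highest for 2, H2-DMa and H2-Oa. Relative to the control mean, the median over the 10 members was 0.85 on the log2 scale in replicate 8, 0.59 in replicate 12, 0.39 in replicate 11, 0.04 in replicate 7 and -0.01 in replicate 10. The labelled Sirt1-deleted group was therefore not uniform. The coefficient of variation of H2-Aa was 35.4% there and 17.5% in controls, and that of H2-Ab1 was 18.6% and 6.92%.

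**Figure D4:**
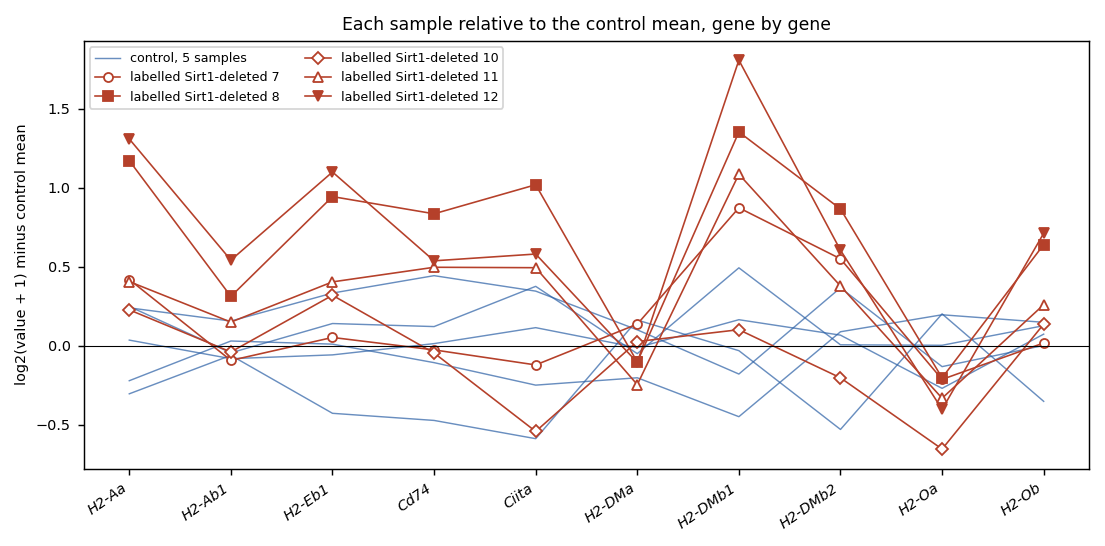
Each sample's log2(value + 1) minus the control mean (y axis) across the 10 class II genes (x axis), with red lines for the 5 labelled Sirt1-deleted samples and blue lines for controls. Replicates 8 and 12 run above the controls except at H2-DMa and H2-Oa, and replicate 10 runs among the controls for most genes.

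A list of other genes of the pathway was read in the same fit. Of the 7 genes of the enhanceosome, the complex that CIITA joins on the promoter, 2 fell (19.4% of all tested genes did) and 5 did not pass, with a median log2 difference of -0.14. None rose in limma, and 3 of the 7 had an unadjusted p under 0.05. Creb1, which binds next to the X box, fell from 6265 ± 506 to 4668 ± 570 normalized counts (log2 difference -0.43, limma adjusted p = 0.00250). Nfya, a subunit of the Y box factor NF-Y, fell from 1872 ± 104 to 1514 ± 133 (log2 difference -0.31, limma adjusted p = 0.00496). Rfx5, the large subunit of the X box complex, measured 1253 ± 179 against 1462 ± 113 and did not pass (log2 difference -0.23, limma adjusted p = 0.0729). Which cells of the spleen these enhanceosome transcripts came from was not tested.

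Interferon gamma signalling genes and other regulators of Ciita moved in both directions: of 14 tested, 6 rose, 4 fell and 4 did not pass, against the same backgrounds of 16.8% and 19.4%. Irf1, which acts on the interferon-responsive Ciita promoter, rose from 3111 ± 237 to 3807 ± 542 (a log2 difference of 0.28, limma adjusted p = 0.0351). Nlrc5, a relative of CIITA that drives MHC class I genes, rose from 1051 ± 247 to 1751 ± 349 (a log2 difference of 0.75, limma adjusted p = 0.00849). Spi1, the myeloid and B cell factor PU.1, rose from 143 ± 16.3 to 381 ± 147 (a log2 difference of 1.32, limma adjusted p = 0.00145). Irf8, a factor of dendritic cells and B cells, measured 676 ± 115 against 626 ± 28.7 and did not pass (limma adjusted p = 0.494). The 4 that fell, named after their values were seen, were the receptor gene Ifngr1 (log2 difference -0.42), the kinase genes Jak1 (-0.35) and Jak2 (-0.45), and Irf4 (-0.59), and Ifng itself was below the filter, at 1.65 to 10.1 normalized counts.

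The order of the samples differed between these genes. Nlrc5 measured 2127, 1925, 1189, 1732 and 1779 in labelled Sirt1-deleted replicates 7, 8, 10, 11 and 12. Replicate 7 was thus the highest, while it exceeded the highest control for only 3 of the 10 members. Irf8 measured 625.5, 834, 560, 603.5 and 756 in the same samples, with replicates 8 and 12 highest and 10 lowest, and Spi1 was highest in replicate 8 (601) and lowest in replicate 10 (199). Replicate 10 had its group's lowest Irf1 (2940) and Nlrc5 (1189), and also its lowest H2-Aa, Cd74, Ciita, H2-DMb1, H2-DMb2 and H2-Oa.

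Of 11 endosomal genes tested, which cut antigen or turn over class II, 3 rose, 2 fell and 6 did not pass, against backgrounds of 16.8% higher and 19.4% lower, with a median of 0.12. Ctss, the protease that trims the invariant chain, rose from 308 ± 42.9 to 593 ± 102 normalized counts (a log2 difference of 0.94, limma adjusted p = 5.29e-04), without overlap between the groups. Ctsh, an aminopeptidase, rose from 98.5 ± 20.0 to 170 ± 28.8 (a log2 difference of 0.79, limma adjusted p = 0.00390). Sppl2a, the intramembrane protease that clears the invariant chain remnant, fell from 3516 ± 101 to 2792 ± 498 (log2 difference -0.35, limma adjusted p = 0.0168). March1, the ubiquitin ligase that removes class II from the surface, measured 85.2 ± 10.8 against 65.7 ± 9.08 and did not pass (limma adjusted p = 0.0709).

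Of the 8 costimulatory genes of antigen-presenting cells tested, 5 rose (background 16.8%), 1 fell (Pdcd1lg2, named after its value was seen; background 19.4%) and 2 did not pass, with a median of 0.59. Cd86 rose from 71.7 ± 6.61 to 125 ± 28.4 normalized counts (a log2 difference of 0.76, limma adjusted p = 0.00509) and Cd80 from 54.7 ± 6.97 to 179 ± 22.4 (log2 difference 1.69, limma adjusted p = 3.52e-05). Both encode ligands of CD28, and neither had any overlap between the groups. Cd40, the receptor for T cell help, rose from 21.8 ± 7.32 to 45.1 ± 11.5 (a log2 difference of 1.03, limma adjusted p = 0.0112). Cd274, which encodes PD-L1, rose from 259 ± 15.7 to 335 ± 36.7 (a log2 difference of 0.37, limma adjusted p = 0.0104). T cells and leukemia cells can also express several of these genes.

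**Figure D5:**
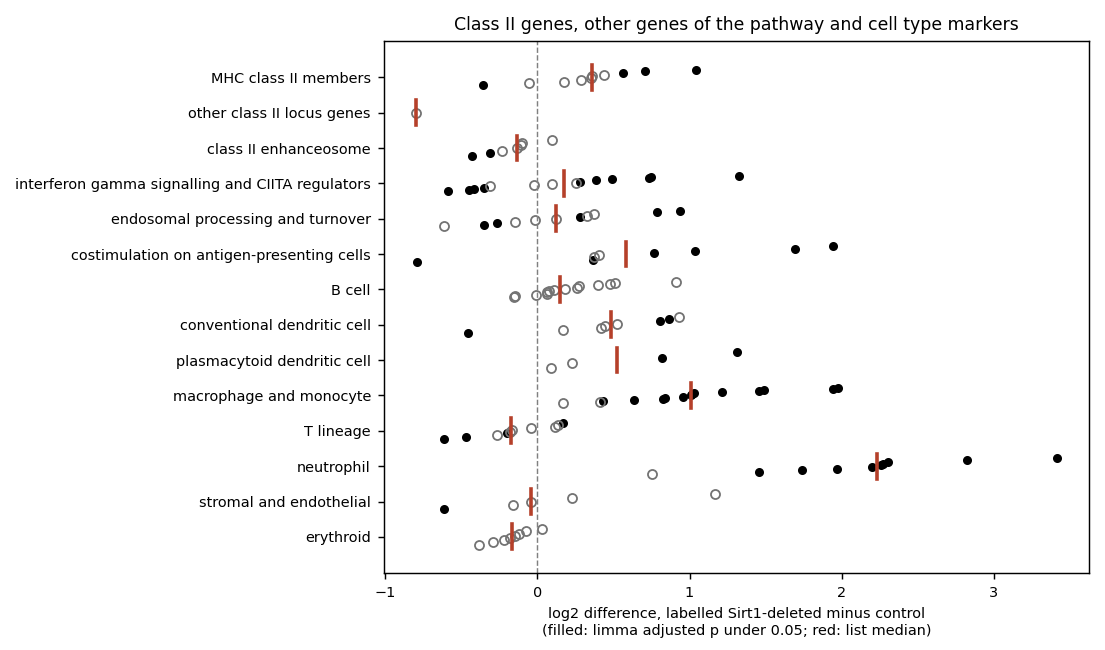
Log2 difference of each tested gene (x axis; points, filled where limma's adjusted p was under 0.05) in the class II genes, the other pathway lists and the cell type marker lists, with red bars for list medians. The class II median of 0.36 lies above that of B cell markers (0.15). It lies below those of conventional (0.48) and plasmacytoid (0.52) dendritic cell markers and of macrophage and monocyte markers (1.01).

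Markers of the cells that present antigen were read beside the members. Of 14 B cell markers tested, 0 passed in limma (2 at an unadjusted p under 0.05), against a background of 36.1%. A positive difference was found for 11 of them, and the median was 0.15. Cd79a, a part of the B cell receptor, measured 184 ± 44.6 against 130 ± 32.8 normalized counts (log2 difference 0.51, limma adjusted p = 0.0807). The summed level of the list without Ighm ranged from 1004 to 1886 in labelled Sirt1-deleted spleens, against 1059 to 1558 in controls, with replicates 8 (1886) and 12 (1863) highest and replicate 10 (1004) lowest. Ighm, the heavy chain gene of IgM, was left out of that sum because at 18250 to 25730 against 17410 to 20350 it was far above the other markers of its list.

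Of 8 conventional dendritic cell markers tested, 2 rose, 1 fell and 5 did not pass, a share called near the background of 36.1%, with a median of 0.48. Itgax, which encodes CD11c, rose from 50.1 ± 17.8 to 89.3 ± 20.0 normalized counts (a log2 difference of 0.87, limma adjusted p = 0.0179). Flt3, the receptor that dendritic cells depend on, measured 52.1 ± 16.2 against 37.0 ± 5.70 (limma adjusted p = 0.132), and Zbtb46, a factor of conventional dendritic cells, 124 ± 29.2 against 109 ± 13.4 (limma adjusted p = 0.455). The marker that fell was Dpp4, which T cells express too, at 6194 ± 443 against 8546 ± 1130. The summed level of the whole list, most of it Dpp4, was 6293 to 7136 against 8046 to 10410, lower without overlap, and without Dpp4 it ranged from 371 to 796 against 300 to 478 (3 markers, Clec10a, Cd209a and Clec4a4, were below the filter). Labelled Sirt1-deleted replicates 8 and 12 had the highest sums, 796 and 677, and replicate 10 the lowest of its group, 371. Of 4 plasmacytoid dendritic cell markers tested, 2 were called higher (background 16.8%) and 2 did not pass. Siglech, low in both groups, measured 23.0 ± 5.05 against 12.7 ± 3.84 (0.82 on the log2 scale, limma adjusted p = 0.0312). Named after their values were seen, Lair1 was the other called marker (1.31), and Ccr9 (0.09) and Pacsin1 (0.23) did not pass. Klk1 and Cox6a2 were below the filter. The list's sum, most of it Ccr9, overlapped at 1966 to 3347 against 1876 to 3170. Without Ccr9 it was 141 to 201 against 67.2 to 122. Lair1 was the largest part of what remained, at 113.7 ± 28.8 against 46.55 ± 15.6, so that sum rests largely on 1 gene.

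Of the macrophage and monocyte markers 13 of 15 rose (background 16.8%), with a median of 1.01, and their summed level was 6985 to 12860 against 3339 to 3805. Csf1r, the macrophage growth factor receptor, rose from 428 ± 49.2 to 581 ± 99.1 (a log2 difference of 0.43, limma adjusted p = 0.0164), C1qa, a complement subunit of tissue macrophages, by 1.46, Lyz2, a lysozyme of myeloid cells, by 1.94, and Ly6c2, a marker of inflammatory monocytes, by 1.97 on the log2 scale. Neutrophil markers rose in 9 of 10 (background 16.8%), with a median of 2.23 (Ly6g 3.42, Ltf 2.82 and S100a9 2.31). Their summed level was 26480 to 90560 against 8213 to 11440. Of the 10 T lineage markers, 1 rose (Cd3d 0.17, named after its value was seen) and 3 fell (Rag1 -0.61, Cd8b1 -0.47 and Cd247 -0.20). The other 6 did not pass, and the share called was near the background of 36.1%. Of 5 stromal and endothelial markers tested, 1 fell (Pdgfrb, -0.61), against a background of 19.4%. In limma 0 of 8 erythroid markers passed (0 at an unadjusted p under 0.05), against a background of 36.1%. No marker list held a gene at 0 in all samples. The part of these cells in the class II differences was not tested.

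H2-Aa was set against 1 gene of each type directly. The log2 ratio of H2-Aa to Cd79a differed by 0.20 (exact permutation p = 0.246), that of H2-Aa to Csf1r by 0.28 (exact permutation p = 0.151) and that of H2-Aa to Flt3 by 0.26 (exact permutation p = 0.0873), with adjusted p of 0.246, 0.188 and 0.170 over the 10 pairs. H2-Aa was thus not shown to change more or less than Cd79a, Csf1r or Flt3. These single genes do not stand for their lists. The log2 difference of Cd79a (0.51) was above its list median (0.15), and that of Csf1r (0.43) was below its own (1.01). That of Flt3 (0.45) was close to its list median (0.48). H2-Aa (0.71) was itself above the median of the class II members (0.36). The ratio to Flt3 had the narrowest spread of the 10 in the labelled Sirt1-deleted samples, at 2.79 to 3.10, and controls ranged from 2.46 to 3.11.

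Likeness was measured as Pearson's r over the 10 samples, after subtraction of each group's mean, with the mean log2 value of H2-Aa, H2-Ab1, H2-Eb1 and Cd74. It is a description, and samples share their library scaling. Outside those 4 genes, H2-Ob (0.88) and Ciita (0.88) were nearest among members, then H2-DMb2 (0.75) and H2-DMb1 (0.67). H2-Oa (-0.06) and H2-DMa (-0.37) did not follow them. Among genes with a mean of at least 100 that are not members, the 10 most alike were Irf5 (0.86), Cd72 (0.86), Nkap (0.86), Mpeg1 (0.85), Irf2 (0.84), Tmem35b (0.84), Rbm48 (0.83), Piezo1 (0.83), Naaa (0.83) and Trpm2 (0.82). Cd72 is a B cell surface protein, and Irf5 and Mpeg1 are expressed by myeloid cells and B cells. No cell type is given here for the other genes of that list, so it is not read as a link to a cell type. Its genes were picked as the highest of very many. Whether values of r this high would arise by chance was not tested.

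Among markers, the median r was 0.58 for B cells (14 genes, all positive), 0.62 for conventional dendritic cells (8 genes, 6 positive), 0.45 for plasmacytoid dendritic cells (4 genes, all positive), 0.29 for macrophages and monocytes (15 genes, 14 positive) and 0.26 for neutrophils (10 genes, 9 positive), against -0.04 over all tested genes. Flt3 (0.86), Wdfy4 (0.80), which dendritic cells need for cross-presentation, Spic (0.80), a factor of red pulp macrophages, and Cd79a (0.77) were among the higher ones, while Itgax (0.23), Zbtb46 (-0.13) and Dpp4 (-0.68) of the dendritic cell list and Adgre1 (0.04) and Fcgr1 (-0.07) of the macrophage list were low, all named after their values were seen. Erythroid markers were all negative, with a median of -0.51, and the T lineage median was 0.07.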

How the data were processed

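RNA came from leukemic spleens pressed to single cells, with red cells then lysed, and libraries kept strand, per the labels' protocols. The deposited values are a normalized signal per gene, which the authors named DESeq-normalized counts. The authors used kallisto 0.44.0, DESeq and mm10, per the submitters' processing notes. How the counts were scaled and filtered, and the annotation, are not given in the sources used here. Low values were whole multiples of 1 step (within 0.1) for 8.22% to 71.5% of values per sample, so reads were not recovered and no counting interval was given.

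Genes with a mean of at least 10 (15276 of 20813) entered limma 3.58.1 (R 4.3.3) on log2(value + 1), which understates changes of low genes, with group as the only term, an intensity trend and Benjamini-Hochberg adjustment over all tested genes at 0.05. Single genes and 10 gene pairs had exact permutation tests (two-sided, 252 assignments, scipy 1.17.1, smallest p 0.00794). The limma script was tested on simulated data. Transcript lengths and shared words came from GENCODE M21, promoters from RefSeq. Named were the members, a fixed set of list genes (Ifi30, among them, was not analysed here, and some others are not reported here), up to 3 called genes of each list with a mean of at least 100 and the largest differences, the 10 genes most alike, and others where the text says so. The members and lists were chosen with earlier results of these data known. Alternatives were pseudocounts, filters, scalings, limma options, an adjusted p under 0.01 and omission of each sample.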

Additional observations from a re-analysis of the deposited data

Results flagged for a closer look

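In each group of 5, the gap between the highest or lowest sample and its nearest neighbour was divided by the group's range, for every gene that the text names, the summed H2-DMb genes and the 10 gene pairs. Of 156 such sets, 6 had a ratio above 0.71, and about 7.8 would do so by chance if the sets were independent and normal. The sets share samples and genes, so that number is only a rough guide. For H2-Ea-ps in controls the ratio was fixed in advance, because only 1 value was above 0. None of the 6 was a class II member, their sum or a pair. In the labelled Sirt1-deleted group, replicate 10 stood low for Cd80 (139, with the others at 183.8 to 192) and high for H2-Ea-ps (29.5). Among controls, replicate 5 stood high for H2-Ea-ps (0.766, with the others listed at 0), replicate 2 high for Jak1 (9461) and low for Ly6c2 (88.8), and replicate 4 low for Rag1 (4185).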

How the results depend on the processing

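No paired analysis was possible because replicate numbers do not recur between groups. Of all tested genes, 2850 passed at an adjusted p under 0.01, and 4207 to 6259 passed when 1 sample was omitted. Upper-quartile rescaling turned the split from 2562 higher and 2956 lower to 3171 higher and 2247 lower, and moved the median of all tested genes to 0.06. The number of members called was 4 under 6 alternatives (both pseudocounts, all 3 filters and quantile normalization), 3 with upper-quartile rescaling (H2-Oa lost) or without the intensity trend (H2-Eb1 lost), and 2 with sample weights (both lost). At an adjusted p under 0.01 it was 0 in limma, where 4 had an unadjusted p under 0.05. With 1 sample omitted it ranged from 1 to 5: it was 1 without control replicate 2 (H2-DMb1), and 2 without control replicate 4 or labelled Sirt1-deleted replicate 12. H2-DMb1 passed in every fit judged at 0.05, with log2 differences of 0.82 to 1.28. H2-DMa turned to 0.0019 after upper-quartile rescaling, and quantile normalization moved Ciita to 0.04. No gene pair passed under any alternative run, with adjusted p from 0.0529. The causes were not tested.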

Other observations

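The pseudogene H2-Ea-ps, the remnant of the E alpha gene that C57BL/6 mice do not express, measured 29.5 normalized counts in labelled Sirt1-deleted replicate 10 and 1.27 in replicate 8. It measured 0.766 in control replicate 5 and was listed at 0 in the other 7 samples. It was below the filter and was not tested, and replicate 10 was the sample of its group with the lowest values of most class II genes.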
